A study of Mus musculus with 141 samples.

Results

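The genes of sterol synthesis and of fatty acid synthesis (lipogenesis) were followed by RNA-seq in 3 organs, the liver, the lung and the kidney, of 47 strains of the Collaborative Cross (CC), a panel of recombinant inbred mouse strains whose genomes are mosaics of the same founder strains. The members were taken from a list of 34 gene names, and the 33 that the deposited gene tables held were used, out of 24423 genes in all: 17 enzymes of sterol synthesis, 4 regulators (Insig1, Stard4, Srebf2 and Srebf1) and 12 genes of lipogenesis. Hmgcs1 was not analysed here. The rule uses gene names and no measured value. Each strain was represented by 1 adult male of 8 to 12 weeks, and its 3 tissues gave 3 libraries, so that the groups were 47 livers, 47 lungs and 47 kidneys. All the mice ate the same wafer diet and spent 6 hours on each weekday for 2 weeks in mesh chambers supplied with clean air, so every group carries that handling. With 1 mouse per strain, a difference between strains and a difference between single mice cannot be told apart. The tissues were whole organs, and in such samples fewer cells of a type and less RNA per cell cannot be told apart.

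Cholesterol is built from acetyl-CoA through mevalonate, farnesyl diphosphate, squalene and lanosterol, and the last steps turn lanosterol into cholesterol. Fatty acids are built from citrate-derived acetyl-CoA by acetyl-CoA carboxylase and fatty acid synthase, and are then lengthened and desaturated. Both routes are governed by the sterol regulatory element binding proteins, the products of Srebf1 and Srebf2, which Insig1 helps to hold in the endoplasmic reticulum when sterols are plentiful. The liver is the main organ of both routes, and adipose tissue is a second large site of lipogenesis.

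The livers were counted at a median depth of 10423382 reads (lowest 1738046, highest 42158454), the lungs at 9338124 (2829104 and 17585682) and the kidneys at 8245850 (3046695 and 15028553). Where a gene was at 0, up to 3 counts remained possible; scaled by the library total to CPM this limit had a median of 0.288 for liver, 0.321 for lung and 0.364 for kidney. The tissue labels held against marker genes: the summed TPM (a level scaled per transcript length and per library) of 4 hepatocyte markers was 29248 or more in every liver and at most 1613 elsewhere, that of 4 lung epithelial markers was 19400 or more in every lung and at most 391.8 elsewhere, and that of 4 kidney tubule markers was 28610 or more in every kidney and at most 1597 elsewhere. Kidneys CC038 and CC059 and liver CC006 stood apart by their adipocyte markers (summed TPM of 9 markers 2971, 1852 and 609.7, against medians of 303.4 in kidney and 21.8 in liver). Calls and correlations that rest on them are given with and without these 3 strains. Across strains, the rho of a member with the total count of its library lay between -0.28 and 0.30.

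A limit of the counting bears on 7 members. Mvk, Pmvk, Mvd, Fdps, Srebf1, Acly and Me1 are listed with more than 1 transcript in the deposited tables, and their median TPM did not pass 8.10 in any tissue, whereas the 26 members listed with 1 transcript had a median of 67.4 in liver, 36.8 in lung and 37.1 in kidney. The same gap ran through all genes: in liver, the median TPM was over 1 for 43.3% of the 18311 genes listed with 1 transcript and for 17.8% of the 6112 genes listed with more. Levels are therefore compared between genes only among the 26. Most of these had their lowest lung TPM in lung CC015 and their lowest liver TPM in liver CC029 or CC033. The scaling factors of these libraries in the fits were low (0.240, 0.194 and 0.116). Once scaled between libraries, lung CC015 was among the 5 lowest for 6 of 15 sterol enzymes. Liver CC029 was so for 13 of 16 and liver CC033 for 1. Lowest TPM values in lung and liver, and overlaps judged on them, thus largely rest on these few libraries. Some members also share sequence with other loci: of the 50-base windows of the transcript, 17.9% occurred once in the genome for Idi1, 39.4% for Fdps, 47.7% for Acaca, 55.4% for Acat2, 67.4% for Insig1 and 67.7% for Me1, and at least 81.2% for each other member, so that values of the first 6 are uncertain.

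The sterol enzymes were far more abundant in liver than in lung. All 16 that could be tested were called higher in liver than in lung (FDR at most 0.1 and at least a 2-fold difference), with a median log2 fold change of 3.29, while 23.9% of the 12127 genes tested were called in that direction. With libraries scaled to their total counts, or on log2 (TPM + 0.1), 12 of the 16 were called; with total counts Pmvk (0.37), Mvd (0.13), Sqle (0.60) and Lss (0.66) fell short of 2-fold. Of the 33 members, Mvk alone was too low to test; its livers had a median of 0.76 TPM, its lungs 0.88 and its kidneys 0.47. Mvk phosphorylates mevalonate. Among the 13 sterol enzymes listed with 1 transcript, median TPM ran from 25.4 to 362.5 in liver, from 8.54 to 54.0 in lung and from 9.74 to 270.1 in kidney, and the log2 fold changes of liver against lung over all 16 ran from 1.59 to 5.39. The 3 comparisons of tissues share libraries, so that they are not independent of one another.

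Tm7sf2, a reductase acting on the sterol ring after lanosterol (chromosome 19, 6062821 to 6068373, NCBI build 37), showed the largest difference between liver and lung among the sterol enzymes. Its lowest, median and highest TPM over strains were 49, 166.0 and 355.8 in liver. In lung they were 2.53, 10.4 and 23.1, and in kidney 4.27, 16.1 and 27.7. No lung or kidney reached the lowest liver. The log2 fold change was 5.39 (SE 0.05, adjusted p = 5.78e-99, limma-voom) for liver against lung and 4.40 (SE 0.05, adjusted p = 9.51e-92) for liver against kidney, and liver was the higher in all 47 strains in both.

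Sc5d, the sterol desaturase that acts shortly before the end of the pathway, had a TPM of 81.3, 362.5 and 970.6 in liver (lowest, median, highest), of 12.5, 53.1 and 88.9 in lung and of 7.56, 21.7 and 73.5 in kidney. Every kidney lay below every liver. The log2 fold change between liver and kidney was 4.92 (SE 0.08, adjusted p = 8.17e-76), the largest of any member in the limma-voom fit. Fdps, which makes farnesyl diphosphate, followed with 4.83 (SE 0.13, adjusted p = 1.42e-57), on a median of 6.59 TPM in liver and 0.42 in kidney; kidney CC004 was listed at 0, and Fdps is among the members listed with more than 1 transcript. The order of this pair turned with edgeR, with the DESeq2 Wald test and without CC006, CC038 and CC059.

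Between liver and kidney the pathway was divided. Of the 16 sterol enzymes tested, 11 were called higher in liver (15.6% of all genes were), none was called higher in kidney by limma-voom, and 5 passed in neither direction: Sqle (log2 fold change 0.79), Nsdhl (0.77), Acat2 (-0.05), Cyp51 (-0.36) and Mvd (-0.92). Mvd and Cyp51 passed the FDR toward kidney but fell short of 2-fold (adjusted p = 5.01e-09 and 0.0108, limma-voom). Sqle and Nsdhl passed it toward liver, also short of 2-fold (adjusted p = 1.66e-09 and 1.82e-16, limma-voom). Kidney was called over liver for Mvd under 7 of 10 alternatives, the DESeq2 Wald test among them but not edgeR. The same call was made for Cyp51 under 3 and for Acat2 under 1. Sqle and Nsdhl changed sign when libraries were scaled to their total counts (-0.18 for both). With total counts 9 of the 16 were called higher in liver and 2 in kidney. Of the 16, 13 had their highest mean in liver and 3, namely Cyp51, Acat2 and Mvd, in kidney, and the fitted differences of those 3 between kidney and liver are the ones given above. Between lung and kidney, 8 sterol enzymes were called higher in kidney (20.6% of all genes were), namely Cyp51, Acat2, Nsdhl, Mvd, Hsd17b7, Ebp, Idi1 and Sqle, and 1, Pmvk, was called higher in lung (25.5% of all genes were). With total counts these were 6 and 3, without Idi1 (-0.95) and Sqle (-0.78) among the former. At most 3 counts were held by 15 of 47 kidneys for Pmvk and by 18 of 47 lungs for Mvd.

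Cyp51, the lanosterol demethylase (chromosome 5, 4081145 to 4104746), gave the largest difference between lung and kidney of the sterol enzymes, and its kidney values fell into separate groups. Its TPM was 13.8, 270.1 and 518.9 in kidney (lowest, median, highest), 20.4, 91.8 and 207.4 in liver and 7.26, 26.3 and 43.2 in lung. The log2 fold change of lung against kidney was -3.54 (SE 0.14, adjusted p = 2.04e-44), with kidney the higher in every strain. TMM-normalised TPM is scaled between the libraries of each tissue by the trimmed mean of M-values. On this measure the kidneys of CC006, CC011, CC030, CC037 and CC039 held 17.1 to 27.1. The kidneys of the other 42 strains held 75.9 to 454.7. On TPM as deposited the 5 low kidneys held 13.8 to 29.9, within the range of the lungs. On counts scaled by TMM over all libraries, each of the 5 still lay above the lung of its strain. These kidneys had 242 to 481 reads counted for the gene, well over the limit of 3 counts. In the livers of the same 5 strains Cyp51 was at 76.8 to 90.4 on TMM-normalised TPM, ranks 16 to 33 of 47 from the lowest. Their lungs were at 12.5 to 25.3, ranks 1 to 26, with a median of 20.8 against 25.5 in the lungs of the other 42 strains. The separation was thus seen in kidney and not in liver, while the lungs of these strains had the lower median. Because the 5 strains were picked for their kidney values, no test was made, and no correlation of kidney Cyp51 is named.

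**Figure D1:**
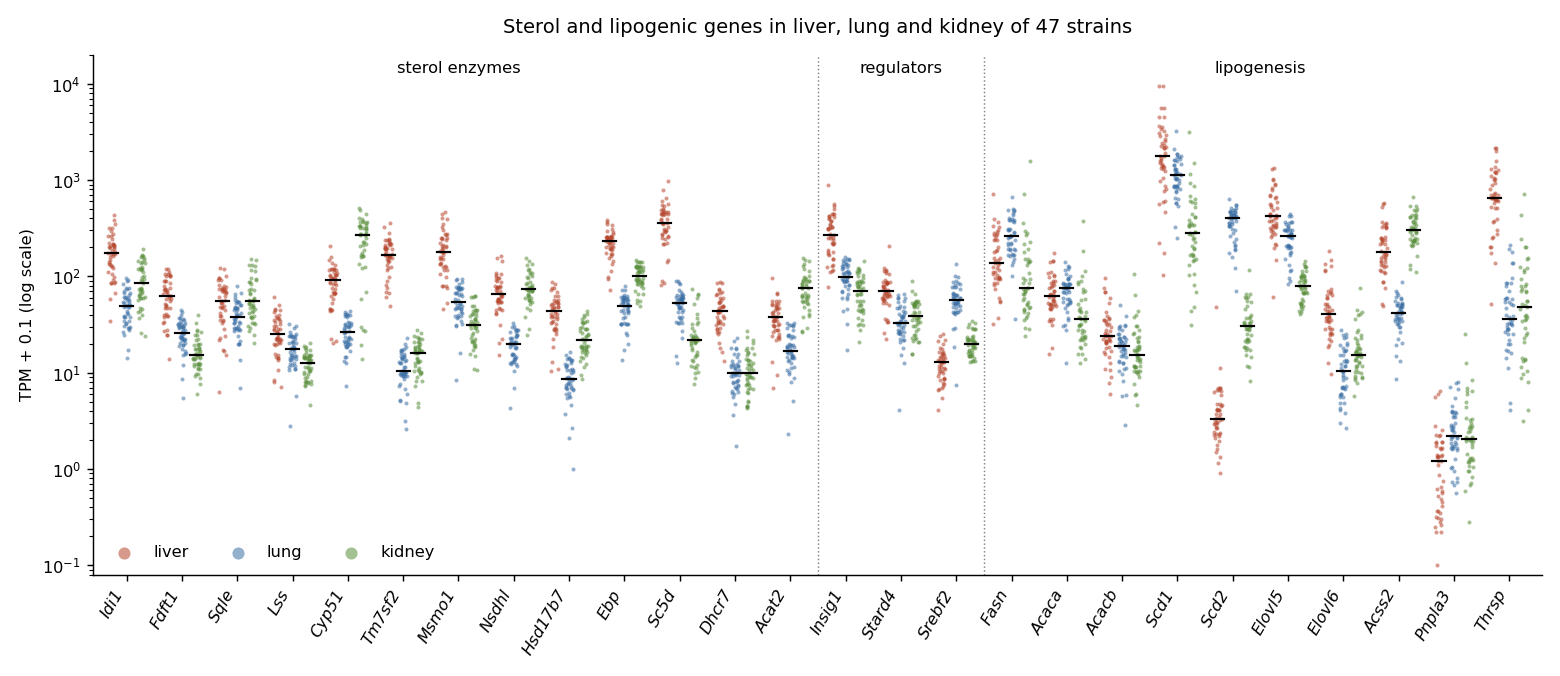
TPM plus 0.1 (log scale) of the 26 members listed with 1 transcript, with 1 point for each strain, coloured by tissue, and black bars at the medians. Most sterol enzymes are highest in liver; Cyp51 is at a median of 270.1 TPM in kidney with 5 strains far below the rest, and Scd2 is at 401.0 in lung against 3.23 in liver.

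The regulators did not share one order. Srebf2 (chromosome 15, 81977696 to 82035806) encodes the factor that chiefly drives sterol genes. Its TPM was 4.05, 12.7 and 25.1 in liver (lowest, median, highest), 7.39, 57.3 and 134.0 in lung and 12.7, 19.9 and 34.3 in kidney. The ranges overlapped in all 3 tissues. It was called higher in lung than in kidney with a log2 fold change of 1.0 (SE 0.07, adjusted p = 3.63e-26), a value at the threshold that moved to between 0.94 and 0.998 and lost the call under 5 of the alternative settings. Liver against lung gave -0.76, short of a 2-fold difference in the limma-voom fit, but lung was called higher with DESeq2 size factors (-1.0), with total counts (-2.12) and on log2 (TPM + 0.1) (-2.22). Liver against kidney gave 0.24, which turned to -0.73 with total counts.

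Insig1 had a TPM of 77.3, 272.4 and 893.4 in liver, 17.2, 98.3 and 159.7 in lung and 20.9, 70.6 and 145.6 in kidney (lowest, median, highest). On TMM-scaled counts the lowest liver lay above every lung and every kidney. The log2 fold change was 2.99 (SE 0.08, adjusted p = 3.57e-57) against lung and 2.97 (SE 0.08, adjusted p = 1.19e-56) against kidney, whereas lung against kidney gave -0.02 (SE 0.08), a difference that became 0.42 with total counts. Stard4, a carrier of cholesterol within the cell, was called higher in liver than in lung (2.57) and than in kidney (1.82, and 0.88 with total counts, short of 2-fold). Srebf1, the factor tied to fatty acid synthesis, is listed with 2 transcripts, and its TPM was low throughout: 0.19, 1.58 and 4.35 in liver, 0, 0.80 and 2.68 in lung and 0, 0.35 and 1.63 in kidney. It was called higher in liver than in lung (log2 fold change 2.21, SE 0.12, adjusted p = 7.96e-33) and than in kidney (2.88, SE 0.12, adjusted p = 3.33e-41). The call against lung was lost with total counts (0.87), and both were lost on log2 (TPM + 1) (0.39 and 0.84).

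In lipogenesis, 9 of 12 genes were called higher in liver than in lung (23.9% of all genes were) and 8 of 12 higher in liver than in kidney (15.6% of all genes were). With total counts 4 of 12 were called in each comparison, namely Acss2, Elovl6, Me1 and Thrsp against lung and Elovl5, Elovl6, Scd1 and Thrsp against kidney. Scd2 was called lower in liver in both comparisons. Thrsp, a nuclear protein that promotes lipogenesis (chromosome 7, 104561448 to 104566240), was among the members that differed most between liver and lung. Its TPM was 52.0, 656.6 and 2181 in liver (lowest, median, highest), 3.97, 35.7 and 212.1 in lung and 3.08, 48.3 and 722.7 in kidney. The ranges overlapped, but liver was the higher tissue in all 47 strains against both others. The log2 fold change was 5.47 (SE 0.21, adjusted p = 2.29e-44) against lung and 4.57 (SE 0.21, adjusted p = 4.17e-38) against kidney. Against lung it was the largest difference of any member in the limma-voom fit, whereas Scd2, lower in liver, had the larger one with DESeq2 size factors (-5.38 beside 5.23 for Thrsp) and with total counts (-6.55 beside 4.12).

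Fasn, fatty acid synthase (chromosome 11, 120667254 to 120685492), did not follow that order. It had a TPM of 32.3, 137.7 and 725.8 in liver, 36.4, 261.3 and 674.6 in lung and 24.2, 75.2 and 1570 in kidney (lowest, median, highest). The 3 tissues overlapped widely. Liver was called higher than kidney (log2 fold change 1.57, SE 0.16, adjusted p = 2.39e-15), a call lost with total counts (0.66) and on log2 (TPM + 1) (0.63). Liver against lung gave 0.67, below the 2-fold threshold, and became -0.71 with total counts. Lung against kidney gave 0.90 (adjusted p = 4.16e-07, limma-voom), also short of 2-fold. Lung was called higher with DESeq2 size factors (1.04), with total counts (1.36), on both log2 TPM scales and without CC006, CC038 and CC059 (1.04). Pnpla3, a lipase of lipid droplets, had a median TPM of 1.10 in liver, 2.08 in lung and 1.95 in kidney and passed in no comparison; its difference between liver and lung, 0.04, became -1.34 with total counts, past the threshold the other way. Acss2, which makes acetyl-CoA from acetate, was called higher in kidney than in lung with a log2 fold change of -3.47 for lung against kidney (SE 0.08, adjusted p = 2.73e-63); it had a TPM of 110.1, 304.1 and 663.8 in kidney, 49.8, 179.9 and 583.4 in liver and 8.59, 41.6 and 86.4 in lung, and every kidney lay above every lung.

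Scd1 and Scd2 encode stearoyl-CoA desaturases, which make monounsaturated fatty acids, and lie near each other on chromosome 19 (44468941 to 44482199 and 44368166 to 44381354, NCBI build 37). Scd1 had a TPM of 104.1, 1782 and 9504 in liver, 249.8, 1125 and 3236 in lung and 31.4, 284.8 and 3184 in kidney (lowest, median, highest). Scd2 had a TPM of 0.82, 3.23 and 48.6 in liver, 70.4, 401.0 and 629.6 in lung and 8.21, 30.2 and 116.9 in kidney. The Scd2 ranges of liver and lung did not meet, while those of Scd1 overlapped.

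Scd2 was higher in lung than in liver by the largest margin of any member in that direction (log2 fold change of liver against lung -5.14, SE 0.10, adjusted p = 1.57e-71) and higher in lung than in kidney (2.99, SE 0.10, adjusted p = 1.22e-51). Scd1 was called higher in liver than in lung (2.16, SE 0.19, adjusted p = 2.27e-19) and than in kidney (3.55, SE 0.19, adjusted p = 2.37e-33). The first call was lost with total counts (0.74) and on log2 (TPM + 0.1) (0.63). Liver CC006 held the highest value of both Scd1 and Scd2 among livers, beside the highest adipocyte marker sum.

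A ratio of paralogs within a library does not depend on the scaling between libraries. The log2 ratio of Scd1 to Scd2 (TPM plus 0.1) was 8.88 ± 1.28 (SD, n = 47) in liver, 1.63 ± 0.54 in lung and 3.21 ± 1.13 in kidney. The ratio was higher in liver than in either other tissue in all 47 strains and higher in kidney than in lung in 43 of 47. Each difference had p = 1e-05, the smallest that the 100000 sign flips can give (two-sided permutation test over within-strain differences, adjusted p = 1.33e-05 over 12 tests).

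Acaca and Acacb are acetyl-CoA carboxylases, the first a cytosolic enzyme that feeds fatty acid synthesis and the second an enzyme at mitochondria that restrains fatty acid oxidation. Acaca had a TPM of 15.4, 62.8 and 174.5 in liver, 12.4, 76.1 and 141.9 in lung and 12.5, 35.8 and 377.3 in kidney (lowest, median, highest). Acacb had a TPM of 5.94, 23.9 and 96.4 in liver, 2.78, 19 and 49.9 in lung and 4.58, 15.3 and 105.7 in kidney. Both overlapped between all tissues. Both were called higher in liver than in lung (log2 fold change 1.39, SE 0.11 and 1.98, SE 0.14) and than in kidney (1.65, SE 0.11 and 1.56, SE 0.14); for Acaca the first of these turned to -0.10 on log2 (TPM + 0.1). With total counts all of these calls were lost, at 0.02 for Acaca and 0.64 for Acacb against lung and at 0.74 and 0.64 against kidney. The log2 ratio of Acaca to Acacb was 1.33 ± 0.64 (SD, n = 47) in liver, 1.94 ± 0.48 in lung and 1.23 ± 0.48 in kidney. Lung was above both others (permutation test, adjusted p = 3.6e-05 against liver and 1.33e-05 against kidney), while liver minus kidney was 0.10 (SE 0.11, permutation p = 0.388).

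Elovl5 lengthens polyunsaturated fatty acids and Elovl6 lengthens palmitate. Elovl5 had a TPM of 60.5, 421.5 and 1326 in liver, 83.1, 260.7 and 448.0 in lung and 40.9, 79.1 and 142.9 in kidney (lowest, median, highest). Elovl6 had a TPM of 9.71, 40.4 and 183.8 in liver, 2.60, 10.3 and 28 in lung and 5.65, 15.3 and 76.2 in kidney. For Elovl5 the middle tissue was lung and for Elovl6 it was kidney. The log2 fold change of lung against kidney was 1.09 (SE 0.08, adjusted p = 2.17e-22) for Elovl5 and -1.20 (SE 0.13, adjusted p = 2.45e-14) for Elovl6, the latter short of 2-fold with total counts (-0.82). The log2 ratio of Elovl6 to Elovl5 was -3.32 ± 0.72 (SD, n = 47) in liver, -4.58 ± 0.75 in lung and -2.24 ± 0.64 in kidney, and each pair of tissues differed (permutation test, adjusted p = 1.33e-05). The ratio of Srebf1 to Srebf2 was also highest in liver, with a log2 ratio of -3.00 ± 0.80 against -5.96 ± 0.82 in lung and -5.52 ± 0.77 in kidney (SD, n = 47; permutation test, adjusted p = 1.33e-05 against each), with the counting of Srebf1 as stated above.

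**Figure D2:**
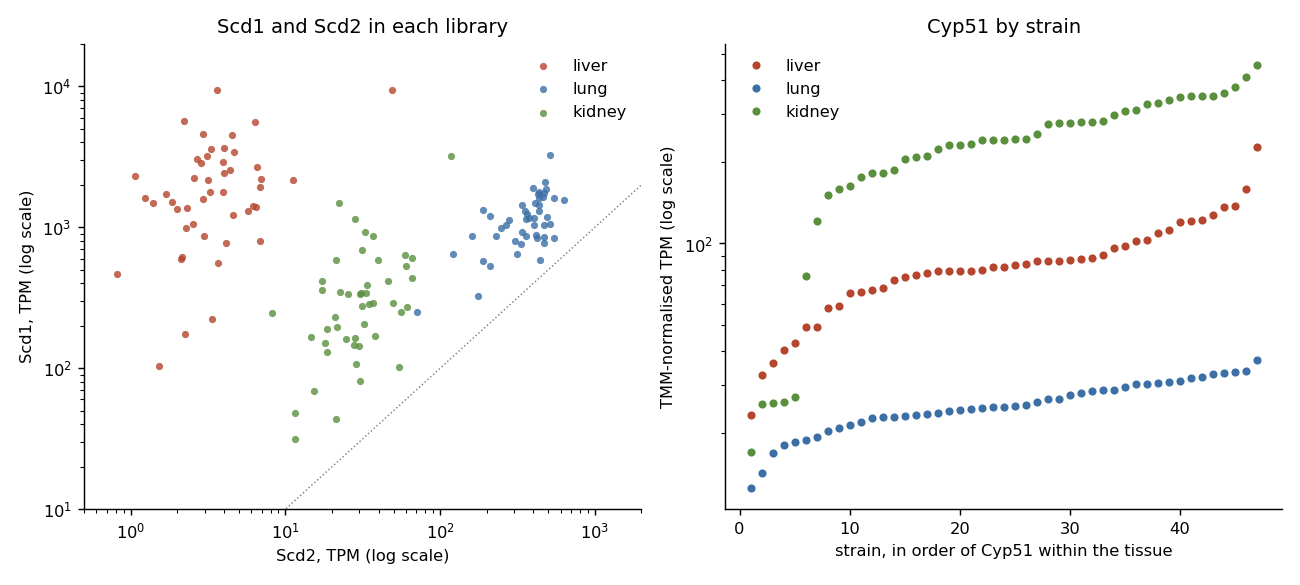
Left, TPM of Scd1 (vertical) against Scd2 (horizontal) on log scales, with 1 point per library and a dotted line at equal values; all libraries lie above the line and the 3 tissues occupy separate areas along the Scd2 axis apart from a few libraries. Right, TMM-normalised TPM of Cyp51 (log scale, scaled within each tissue) with the 47 strains ordered within each tissue. Among the kidneys, 5 lie at 17.1 to 27.1 and the other 42 at 75.9 to 454.7.

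Over all roles, 28 of the 32 members tested were called higher in liver than in lung, 1 (Scd2) lower (31% of all genes were) and 3 not called, with a median log2 fold change of 2.57 beside -0.06 over all genes. Between liver and kidney 22 were called higher in liver and 1 (Scd2) higher in kidney (20.8% of all genes were), with a median of 1.90 beside -0.0034. Between lung and kidney 5 (Pmvk, Srebf2, Elovl5, Scd1 and Scd2) were called higher in lung and 11 in kidney, with a median of -0.48 beside 0.04. In either direction, 55% of all genes were called between liver and lung, 36.4% between liver and kidney and 46.1% between lung and kidney. The members' counts depend on the scaling. With total counts in place of TMM, the median of all genes moved to -1.44 for liver against lung, -0.95 for liver against kidney and 0.46 for lung against kidney, and the first count became 18 higher in liver and 3 higher in lung. On log2 (TPM + 1) the medians were -1.21, -0.72 and 0.47, and 17 members were called higher in liver than in lung and 13 than in kidney. Acly, which cleaves citrate to acetyl-CoA, was called higher in liver than in lung (1.46), and its sign also turned on log2 (TPM + 1). Relative to the median of all genes, the median member stood at 2.63 with TMM and 2.64 with total counts for liver against lung, at 1.90 and 1.91 for liver against kidney and at -0.52 and -0.49 for lung against kidney. Such a change of scaling shifts all genes of a library alike, so that this closeness follows from the measure and is no separate support. On log2 (TPM + 1) the 3 values were 2.26, 1.57 and -0.41.

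Of 45 further genes of the same pathways, listed by function, 32 were tested. Between liver and lung, 22 were called higher in liver and 5 in lung (23.9% and 31% of all genes were). Between liver and kidney, 20 were called higher in liver and 3 in kidney (15.6% and 20.8% of all genes). Between lung and kidney, 6 were called higher in lung and 13 in kidney (25.5% and 20.6% of all genes). Elovl3, an elongase of long saturated chains, had the largest difference of these in both liver comparisons (log2 fold change 9.62 against lung and 7.70 against kidney). Mlxipl, the carbohydrate-responsive factor of lipogenesis, had a log2 fold change of 6.11 against lung. Soat2, which esterifies cholesterol, and Lpin2, a phosphatidate phosphatase, followed against kidney (7.24 and 4.70). Between lung and kidney, Mlxipl (-4.64), Aacs (-3.41), which activates acetoacetate, and Dgat2 (-2.85), which completes triglycerides, were the furthest apart, all higher in kidney.

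**Figure D3:**
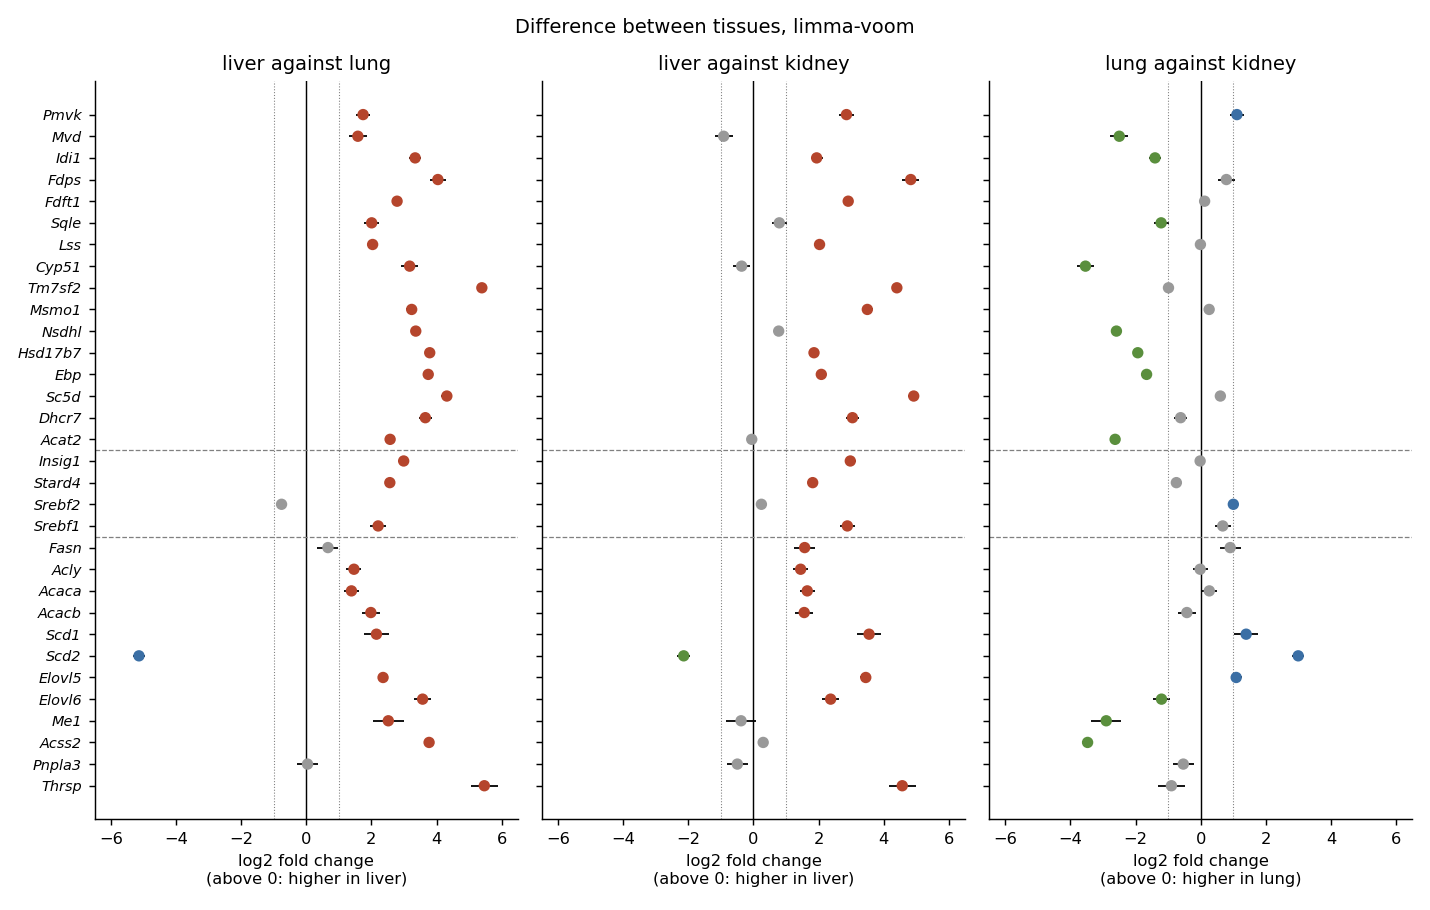
log2 fold change of the 32 members tested in the 3 comparisons of tissues, with lines spanning 1.96 SE of the fit on each side, dotted lines at a 2-fold difference and dashed lines between sterol enzymes, regulators and lipogenesis. Red points were called higher in liver, blue in lung, green in kidney and grey not called. In both liver panels Scd2 alone lies past the 2-fold line on the left, at -5.14 and -2.14.

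Within a tissue, the sterol enzymes varied together over strains in liver, less so in lung and hardly in kidney. The median Spearman rho over pairs of sterol enzymes was 0.535 in liver (120 pairs), 0.295 in lung (105 pairs) and 0.121 in kidney (105 pairs), while the median over all pairs of expressed genes was 0.008, 0.003 and 0.004. In liver 55.8% of the pairs were over 0.5, against 0.316% of all pairs; in kidney no pair was. Pairs of lipogenic genes had medians of 0.394, 0.304 and 0.380 in liver, lung and kidney, and a sterol enzyme with a lipogenic gene 0.180, 0.102 and 0.078. These values describe pairs measured in the same libraries and carry no test. Without CC006, CC038 and CC059 the medians of the sterol enzymes were 0.546, 0.295 and 0.131 in liver, lung and kidney. Those of the lipogenic genes were then lower, at 0.348, 0.289 and 0.349.

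**Figure D4:**
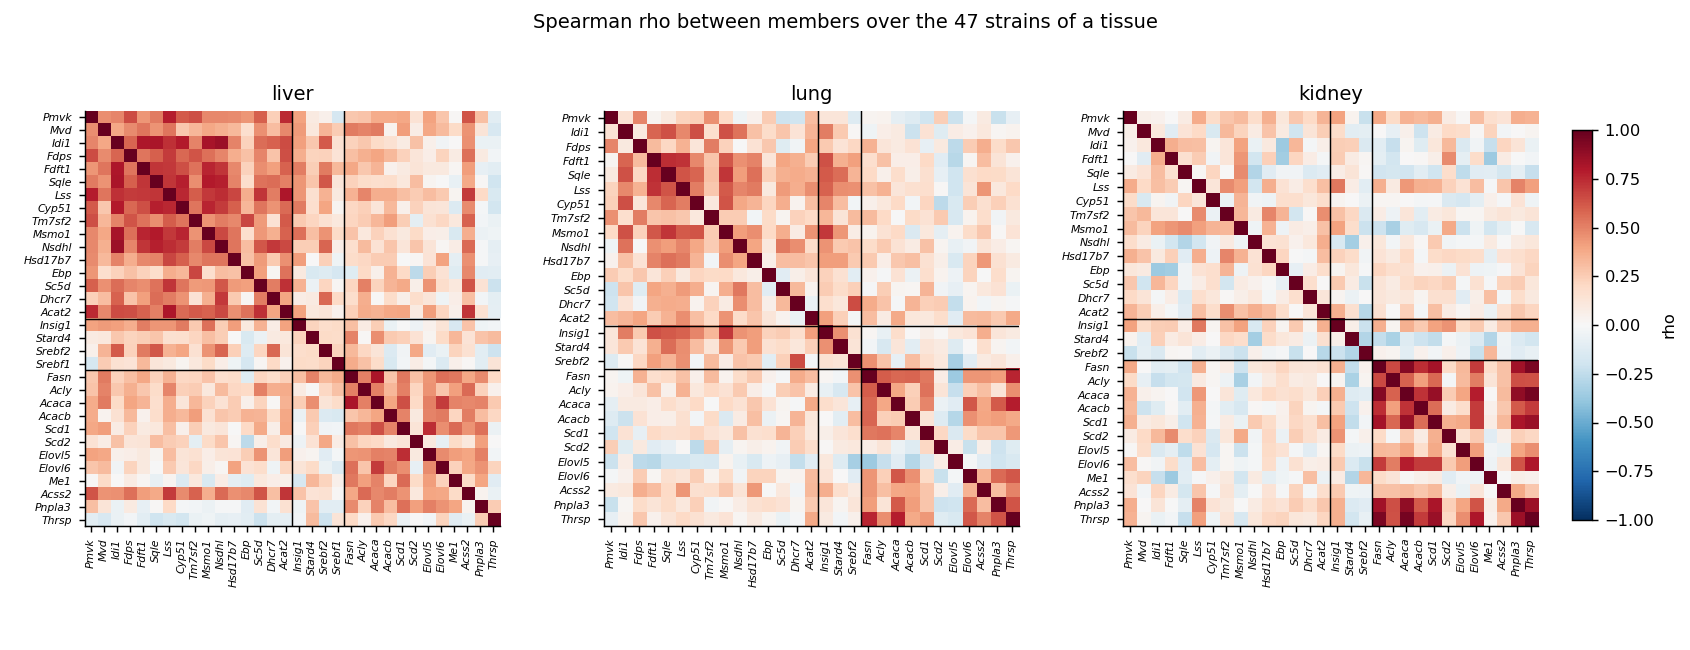
Spearman rho between members over the 47 strains of each tissue, from -1 (blue) to 1 (red), with black lines between sterol enzymes, regulators and lipogenesis. The block of sterol enzymes is red in liver (median 0.535) and pale in kidney (0.121), and the block of lipogenic genes is strongest in kidney for Fasn, Acaca, Acacb, Scd1, Elovl6, Pnpla3 and Thrsp.

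Some livers stood at one end of the range for many sterol enzymes at once. In liver CC029, 13 of 16 sterol enzymes were among the 5 lowest strains, and in liver CC023 12 were. In liver CC013 11 were among the 5 highest, and in liver CC019 10 were. For Idi1, the isomerase of isopentenyl diphosphate, TMM-normalised TPM was 68.6 in CC029 and 98.9 in CC023, and 280.3 in CC013 and 422.9 in CC019. The 4 livers differed in lipogenesis: CC029 was also among the 5 lowest for 6 of 12 lipogenic genes, and CC023 for none. Liver CC029 had 11644 genes with a count where the median liver had 13678, and CC023 had 13824. In lung, CC061 had 9 of 15 sterol enzymes among the 5 lowest and CC031 had 12 among the 5 highest. In kidney the most were 7, in CC004 among the lowest and in CC013 among the highest.

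The promoters of the members share sequence features that the list did not use. RefSeq promoter windows on build GRCm38.p6, from 250 bases before to 50 after a start, were at hand for 27 of the 33 members; the others are Fdps, Fdft1, Sqle, Stard4, Scd1 and Scd2. The letters CCAAT, the CCAAT box that binds NF-Y, a partner of the sterol regulatory proteins, were found on either strand in 24 of 27 members (88.9%), in 41.1% of the 27025 genes with a window and in 40.9% of the 9145 tested genes. The GC box GGGCGG, which binds Sp1 and its relatives, was in 20 of 27 (74.1%), against 38.2% of all genes and 64.0% of tested genes, and was in 13 of 14 sterol enzymes but 4 of 10 lipogenic genes. The E-box CACGTG was in 5 of 27 (18.5%; 8.09% of all genes and 10.8% of tested genes), and TCACNCCAC, the core of a sterol regulatory element, was in 0 of 27 (1.44% of all genes), which says that these letters are absent from these windows and nothing on the factor. No motif is contained in another. A match is a description, not a site.

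The 160 bases before the start are shown for 6 members, 4 enzymes of the block that varied together in liver, the regulator Insig1 and the lipogenic gene Fasn, to set the boxes beside each other. Each is written in the direction of its gene on GRCm38.p6, with capitals marking CCAAT, its reverse complement ATTGG and the E-box CACGTG.
Idi1, chr13:8885446-8885605 (strand +): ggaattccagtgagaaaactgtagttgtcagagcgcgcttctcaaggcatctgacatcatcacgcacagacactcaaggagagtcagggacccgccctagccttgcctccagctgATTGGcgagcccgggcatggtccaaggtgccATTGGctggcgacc
Cyp51, chr5:4104698-4104857 (strand -): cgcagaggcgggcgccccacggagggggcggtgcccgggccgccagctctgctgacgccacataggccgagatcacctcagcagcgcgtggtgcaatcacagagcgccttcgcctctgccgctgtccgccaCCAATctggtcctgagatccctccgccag
Msmo1, chr8:64733579-64733738 (strand -): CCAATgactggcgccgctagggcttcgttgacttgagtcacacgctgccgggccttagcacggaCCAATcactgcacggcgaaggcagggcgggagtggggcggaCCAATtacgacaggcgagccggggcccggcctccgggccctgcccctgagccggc
Sc5d, chr9:42264301-42264460 (strand -): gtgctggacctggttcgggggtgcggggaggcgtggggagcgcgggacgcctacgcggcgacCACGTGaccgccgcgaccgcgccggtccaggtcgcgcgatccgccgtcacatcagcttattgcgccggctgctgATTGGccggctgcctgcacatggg
Insig1, chr5:28071252-28071411 (strand +): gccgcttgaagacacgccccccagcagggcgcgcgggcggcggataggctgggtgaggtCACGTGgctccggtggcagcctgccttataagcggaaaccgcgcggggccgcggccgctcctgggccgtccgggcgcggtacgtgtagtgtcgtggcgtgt
Fasn, chr11:120824548-120824707 (strand -): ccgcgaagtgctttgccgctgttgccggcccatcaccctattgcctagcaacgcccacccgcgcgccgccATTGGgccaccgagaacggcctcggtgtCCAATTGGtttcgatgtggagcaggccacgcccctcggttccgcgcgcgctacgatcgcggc
Msmo1, a sterol methyl oxidase, has 3 boxes here. In Fasn a pair of boxes on opposite strands share letters. Insig1 shows an E-box within the stretch, and its CCAAT box lies further from the start; Sc5d has both kinds.

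In liver, 9 of 16 sterol enzymes correlated with Srebf2 over strains. Of 119 correlations of members with Srebf1 or Srebf2 (rank inverse normal values of TMM-normalised TPM, 47 strains, 100000 permutations, two-sided), 10 of 31 with Srebf2 in liver passed an FDR of 0.1, all positive. The r of the 16 sterol enzymes ran from -0.14 to 0.66 with a median of 0.37. Of all 9001 expressed genes, 7.25% had an absolute r of 0.364 or more, the smallest that passed among the 119. Idi1 had r = 0.66 (permutation p = 1e-05, adjusted p = 0.000297; rho = 0.62, permutation p = 2e-05) and 0.56 once the 2 strains most distant in Srebf2 were left out. Sqle, squalene epoxidase, had r = 0.61 (permutation p = 1e-05, adjusted p = 0.000297; rho = 0.62, permutation p = 2e-05) and 0.49 without the 2 strains. Nsdhl, a sterol dehydrogenase, had r = 0.61 (permutation p = 1e-05, adjusted p = 0.000297; rho = 0.58, permutation p = 3e-05) and 0.51. Without those 2 strains 5 of the 10 passed. With TPM not scaled by TMM 28 of 31 passed, so that the count depends on the scaling.

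In lung, 5 of 28 correlations with Srebf2 passed, while 26.9% of all expressed genes reached an absolute r of 0.364 there. Dhcr7, the reductase that completes cholesterol, had r = 0.64 (permutation p = 1e-05, adjusted p = 0.000297; rho = 0.65, permutation p = 1e-05) and 0.64 without the 2 strains. Fasn (r = 0.50, rho = 0.46, adjusted p = 0.00595), Lss (r = 0.47, rho = 0.45, adjusted p = 0.0127) and Fdft1 (r = 0.38, rho = 0.41, adjusted p = 0.0753) were also positive in the same permutation test, and Elovl5 was negative (r = -0.44, rho = -0.33, adjusted p = 0.0265), a value that became -0.31 and was no longer past the threshold without the 2 farthest strains. In kidney 0 of 29 passed (18.7% of all expressed genes reached that r), with r from -0.28 to 0.31 and 1 of 29 at an unadjusted permutation p under 0.05. With TPM not scaled by TMM the counts were 28 in lung and 23 in kidney. With Srebf1, measured as stated above, 1 of 31 passed in liver (3.84% of all expressed genes reached that r), Fasn (r = 0.37, permutation p = 0.0103, adjusted p = 0.0814; rho = 0.37, permutation p = 0.0118), and none did without the 2 farthest strains.

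Lipogenic genes in kidney and lung followed adipocyte markers. The sum of 9 markers ranged from 98.0 to 2971 TPM in kidney, from 35.7 to 898.2 in lung and from 5.03 to 609.7 in liver. Fabp4, which endothelial cells also express, made up a median of 93.5% of it in kidney, 87.3% in lung and 96.7% in liver. In liver 8 of the 9 markers had a median below 1 TPM. Adipoq, which adipocytes alone are known to make, had a median of 18.1 TPM in kidney, 24.6 in lung and 0.37 in liver, and 6 of the 9 markers had a median below 1 TPM in kidney and in lung, with Plin1, Cfd and Cidec at a median of 0 in kidney. Brown adipocyte markers reached a summed 1399.9 TPM in kidney CC038.

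In kidney, 9 of 12 lipogenic genes correlated with the sum at an FDR of 0.1 over 91 correlations, with a median r of 0.78 over the 12, and so did 2 of 15 sterol enzymes and 1 of 3 regulators. An absolute r of 0.329, the smallest that passed, was reached by 2.7% of all expressed genes other than the markers in kidney, 4.94% in lung and 3.81% in liver. Thrsp had r = 0.91 (permutation p = 1e-05, adjusted p = 8.27e-05; rho = 0.91, permutation p = 1e-05) and 0.90 once the 2 strains most distant in the sum were left out. Acaca had r = 0.91 (rho = 0.92) and 0.90 without them, and Fasn had r = 0.90 (rho = 0.90) and 0.89, each with permutation p = 1e-05 for both measures and adjusted p = 8.27e-05. In lung 8 of 11 lipogenic genes passed, led by Thrsp (r = 0.82, rho = 0.81, permutation p = 1e-05 for both, adjusted p = 8.27e-05; 0.78 without the 2 strains) and Acaca (r = 0.71, rho = 0.73, permutation p = 1e-05 for both, adjusted p = 8.27e-05; 0.72), and no sterol enzyme did, nor did any at an unadjusted p under 0.05. Without the 2 strains 5 of the lung correlations passed, and with Adipoq in place of the sum 5 did. In liver the sum, there almost wholly Fabp4, went with Acly (r = 0.35, permutation p = 0.0155, rho = 0.33, permutation p = 0.0228, adjusted p = 0.0785) and inversely with Srebf2 (r = -0.40, permutation p = 0.00591, rho = -0.31, permutation p = 0.0341, adjusted p = 0.0384). These were 2 of 32 members, and 1 passed without CC006, CC038 and CC059. The part of adipose tissue in the lipogenic values was not tested.

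Kidneys CC038 and CC059 held the highest marker sums and the highest Fasn (1570 and 724.0 TPM), Scd1 (3184 and 1490), Acaca (377.3 and 185) and Thrsp (722.7 and 438.0) of all kidneys. Without CC006, CC038 and CC059 the highest kidney Fasn was 357.8 TPM, the highest Scd1 1154 and the highest Thrsp 245.8. Without these strains 9 kidney correlations passed the threshold, against 12 with them.

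**Figure D5:**
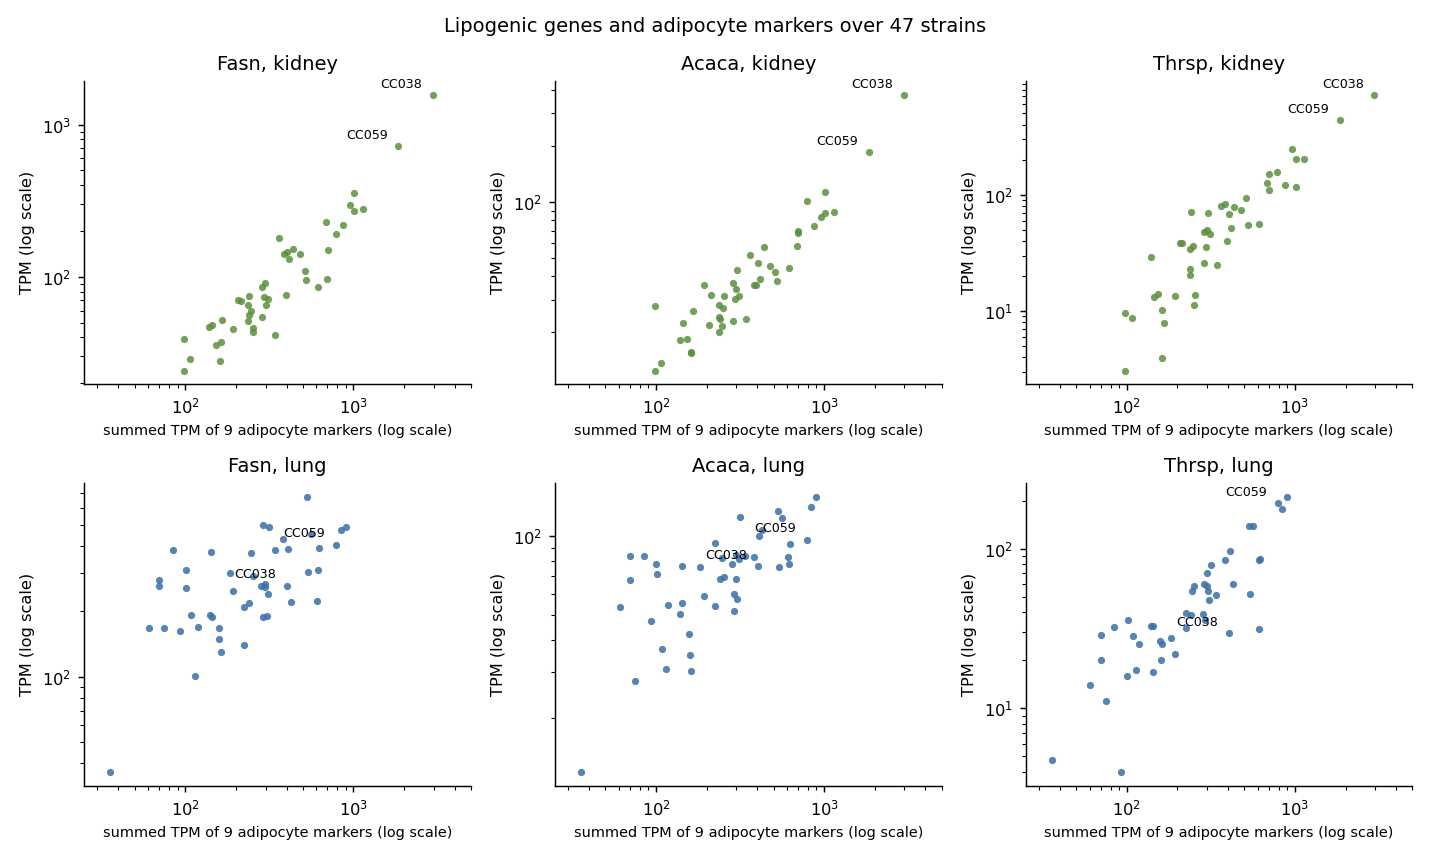
TPM as deposited of Fasn, Acaca and Thrsp (vertical, log scale) against the summed TPM of 9 adipocyte markers (horizontal, log scale) in the 47 kidneys (top) and 47 lungs (bottom), with 1 point per strain. In kidney all 3 genes climb with the markers up to CC038 at 2971; in lung the climb is plainest for Thrsp.

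The spread over strains was widest for lipogenic genes. For the 12 lipogenic genes the SD of log2 CPM had a median of 0.82 (liver), 0.52 (lung) and 0.94 (kidney), for 16 sterol enzymes 0.57, 0.34 and 0.47, and for all tested genes 0.52, 0.38 and 0.41. Me1 (1.72), Pnpla3 (1.56) and Mvd (1.48) spread most in liver. Me1, the malic enzyme that supplies NADPH, lay between 0 and 4.90 TPM there, Pnpla3 between 0 and 6.35, and Mvd, the mevalonate decarboxylase, between 0 and 4.04, so that all 3 rest on low values. In lung Thrsp (1.09), Fdps (1.02) and Me1 (0.90) spread most, and in kidney Thrsp (1.62), Scd1 (1.21) and Fasn (1.18), the last 3 being genes that correlated with the adipocyte markers there. Fdps held at most 3 counts in 20 of 47 lungs and Me1 in 19 of 47, so these 2 also rest on low values. All these SDs include CC006, CC038 and CC059.

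Few members correlated with themselves between tissues. Of 87 correlations of a member with itself between tissues, 3 of 30 passed an FDR of 0.1 between liver and kidney, 0 of 29 between liver and lung and 3 of 28 between lung and kidney. Among all expressed genes, 14.8%, 9.89% and 12.3% had an absolute r of at least 0.397, the smallest that passed, so that the members' shares were not above these. Sc5d had r = 0.54 between liver and kidney (permutation p = 0.00012, adjusted p = 0.0104; rho = 0.56, permutation p = 9e-05) and 0.55 without the 2 farthest strains. Fdft1, squalene synthase, had r = 0.50 (permutation p = 0.00037, adjusted p = 0.0161; rho = 0.43, permutation p = 0.00287) and 0.49, and Lss, lanosterol synthase, was the third with r = 0.44 (permutation p = 0.00183, adjusted p = 0.0318; rho = 0.36, permutation p = 0.0146) and 0.40. The lowest in that pair were Fasn (-0.26) and Acacb (-0.20), neither past the threshold.

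Between lung and kidney, Elovl5 had r = 0.48 (permutation p = 0.00061, adjusted p = 0.0177; rho = 0.43, permutation p = 0.0027) and 0.44 without the 2 farthest strains, and Acaca had r = 0.45 (permutation p = 0.00126, adjusted p = 0.0274; rho = 0.44, permutation p = 0.00218) and 0.42. Pnpla3 had r = 0.40 (permutation p = 0.00577, adjusted p = 0.0837; rho = 0.36, permutation p = 0.0127) and 0.34, no longer past the threshold. The adipocyte marker sums of lung and kidney had r = 0.27 (permutation p = 0.0709; rho = 0.27, permutation p = 0.0653) and 0.15 without the 2 farthest strains. The lowest were Stard4 (-0.34) and Dhcr7 (-0.21). Between liver and lung the highest were Srebf2 (r = 0.35, adjusted p = 0.156, permutation test) and Acly (0.29), and the lowest Thrsp (-0.16) and Idi1 (-0.16). At an unadjusted permutation p under 0.05, 2 of the 29 passed there, and 3 passed the FDR with TPM not scaled by TMM.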

How the data were processed

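RNA of 47 livers, 47 lungs and 47 kidneys was sequenced after ribosomal depletion, and groups were taken from the tissue labels. The authors aligned single-end reads of 50 bases with STAR 2.5.3a to genomes built for each strain on mm9 and quantified uniquely aligned reads with RSEM. They deposited, for each gene and library, an expected count, which is not normalised, together with TPM and FPKM, which are scaled by the authors per length and per library; FPKM was not used here. A batch was not given in the labels and stays out of the fits.

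Expected counts were rounded (25 values were not whole). The 12127 genes over 1 CPM in 30% of the libraries or more were tested, with TMM scaling in edgeR 4.0.16 and limma-voom in limma 3.58.1 (R 4.3.3) on tissue and strain over all libraries, Benjamini-Hochberg adjustment over all tested genes, and a call at q of 0.1 and a log2 fold change of 1. On simulated counts for liver against lung (11404 genes), 100 of 100 genes changed by a log2 of 1.5 and 100 of 100 changed by 2 were called, with 0 false calls. The dependence of calls on the scaling between tissues was not tested on these counts. Libraries of one strain came from 1 mouse, which is the pairing. Their deviations from the tissue means had a median correlation of 0.17 (liver and lung), 0.17 (liver and kidney) and 0.21 (lung and kidney). Between different mice the medians were at most -0.0048. The best match was the same mouse for 39, 44 and 34 of the 47 mice in these 3 pairs. Correlations over strains used members with TMM-normalised TPM over 1 in more than 50% of libraries, rank inverse normal values and 100000 permutations, and are adjusted within each of the 3 sets of correlations. Limits for a count of 0 cover counting error only, and SEs are those of the fit over libraries. Beside the correlations stands the share of all expressed genes with an absolute r at least as large as the smallest that passed.

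Coordinates are those of NCBI build 37, which matches mm9; promoter windows are RefSeq's on GRCm38.p6. Alternatives were other scalings, filters, thresholds, tests (DESeq2 1.42.0 among them), pseudocounts and sets of strains. The members, the gene lists and the tests were chosen with earlier results of these data known. Values were named in full for Srebf1, Srebf2, Insig1, the paralog pairs, the 3 largest fold changes in each comparison, the 3 widest spreads in each tissue and the 2 highest and 2 lowest correlations in each pair of tissues; Cyp51 in kidney and the livers at the ends of the range were singled out after their values were seen. The values of 1 gene on the further pathway list, which is included in the counts of that list, are not reported here.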

Additional observations from a re-analysis of the deposited data

How the results depend on the processing

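Scaling and the fold change threshold moved the counts of members called. Called higher in liver than in lung were 28 members by the reported fit, 18 with total counts and 17 on log2 (TPM + 1) and on log2 (TPM + 0.1); higher in lung were 1, then 2 with DESeq2 size factors, on log2 (TPM + 1) or with no fold change threshold, and 3 with total counts or on log2 (TPM + 0.1). Higher in liver than in kidney were 22, and 13 on log2 (TPM + 1); higher in kidney were 1, then 2 with DESeq2 size factors, the DESeq2 Wald test, no filter on low counts or without CC006, CC038 and CC059, 3 on log2 (TPM + 1), 4 with no fold change threshold, 5 with total counts and 6 on log2 (TPM + 0.1). Higher in lung than in kidney were 5, then 9 with total counts or on log2 (TPM + 0.1) and 12 with no fold change threshold, which gave 17 in place of 11 higher in kidney. Reversed for liver against lung were Acly (-0.0395 on log2 (TPM + 1), -0.07 on log2 (TPM + 0.1)), Acaca (-0.0943 and -0.0958) and Pnpla3 (-1.34 with total counts, -1.32 on log2 (TPM + 0.1)). Without the replicate block of strains the pairing was dropped: the call of Srebf2 in lung against kidney was lost (0.98), that of Tm7sf2 was gained (-0.99 in the reported fit), no other member changed its call, and the 12 differences of paralog ratios kept their calls under every alternative run.

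Correlations past the threshold between tissues were 3 for liver and kidney (6 on log2 (TMM-normalised TPM + 0.1), 11 without TMM), 0 for liver and lung (1 on that log2 scale, 3 without TMM, 1 without the 3 strains) and 3 for lung and kidney (7 and 6). With Srebf2 they were 10 in liver (28 without TMM, 5 without the 2 farthest strains), 5 in lung (28 without TMM) and 0 in kidney (1 on that log2 scale, 23 without TMM), and with Srebf1 in liver 1 (23 and 0). With the adipocyte sum they were 12 in kidney (21 without TMM), 8 in lung (5 without the 2 farthest strains, 5 with Adipoq alone) and 2 in liver (16 without TMM, 1 without the 3 strains). Median SDs with total counts were 0.91 and 0.89 for liver sterol enzymes and regulators, 0.89, 0.92 and 0.96 for lung sterol enzymes, regulators and lipogenic genes, and 0.86 and 0.86 for kidney sterol enzymes and regulators; on log2 (TPM + 0.1) they were 0.64 and 0.68 for lung sterol enzymes and regulators. Leaving out CC006, CC038 and CC059, and Adipoq alone, were chosen after seeing the data. The causes of these shifts were not tested. Depth limits what can be said of values at 0, where up to 3 counts remained possible. Some livers had such values for Me1, Pnpla3 and Mvd, and some lungs and kidneys for Srebf1 and Fdps. Acly was at 0 in the liver, the lung and the kidney of CC036, where the median counts over strains were 60, 45 and 29. CC036 is included in the spread and the correlations of Acly.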
